A study of Mus musculus with 8 samples.

Results

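The genes described here encode 42 enzymes and subunits that remodel nucleosomes or write and erase marks on histones and DNA. They were examined in ATAC-seq data from group 2 innate lymphoid cells (ILC2s), which are lymphocytes that make type 2 cytokines. ATAC-seq maps accessible chromatin by where the Tn5 transposase inserts. The genes were chosen by name for what their proteins do, and all 42 were found among 21887 protein-coding genes. A region counted for a gene when it had a summit inside the gene body or within 20 kb of it. This gave 379 of 60835 regions in the union of the peak lists, and no region counted for more than one of the 42 genes. Of the 379, 203 lay within this distance of no other protein-coding gene. The rest also counted for a neighbour outside the 42, so they cannot be assigned to these genes alone. At the distance limit, a summit 19993 bp from Ezh1 counted (fold 2.64, the value over background explained below) and one at 20001 bp did not (2.61). A strong region past the end of the Smarca4 window, 20050 to 20063 bp away, was in all 4 lists with folds between 15.5 and 17.0 and did not count.

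All 4 groups held thymic ILC2s of C57BL/6 mice that carry the plck-Id1 transgene. Id1 binds E proteins and blocks them, and the name of the transgene refers to the promoter of Lck, a T cell kinase gene. The cells were transduced with a MIGR1 retrovirus carrying GFP, with or without E47-ER, sorted by its fluorescence, expanded in a cytokine mix with IL-7, IL-25 and IL-33, and given 4-hydroxytamoxifen for 4 h or 16 h. E47-ER joins the E protein E47 to a part of the estrogen receptor that responds to tamoxifen. The groups are thus E47-ER at 4 h and 16 h and GFP at 4 h and 16 h, all of them transgenic for Id1 and all given tamoxifen, with 2 samples each. The sample titles and transduction labels were used, while the free-text descriptions name the vector by replicate number and disagree with them. If the descriptions hold, every list mixes the vectors and nothing below compares them. Whether a group's 2 samples came from different animals is not given in the labels.

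Each group is represented by a single peak list that the authors made from both samples. There is therefore no spread between samples and no test between groups, and everything below describes 4 lists. After lines that overlap were merged, the E47 lists held 49811 (4 h) and 40649 (16 h) regions and the GFP lists 42665 (4 h) and 52846 (16 h), and read depth is unknown. A region called with one vector and not overlapped by any region of the other vector's list at that time is named E47-only or GFP-only. Such a region may still have been accessible in the other cells below the calling threshold. As a check of the label, the start windows of 7 of 10 ILC2 marker genes, Gata3, Il2ra, Il7r and Il13 among them, were covered in all 4 lists. Those of 5 of 6 T cell markers (Cd3d, Cd3e, Cd3g, Cd5 and Cd8a), of 3 of 3 B cell markers and of 2 of 3 myeloid markers were covered in none. The other marker starts were those of Themis (T cell) and Cebpa (myeloid), covered in all lists, and of the ILC2 markers Rora, covered in none, Il1rl1, covered in 1, and Il5, covered in 2. A region anywhere over the gene body was in all lists for 11 of 12 ILC2 markers, 2 of 8 T cell markers (Cd3d and Themis), 1 of 6 B cell markers (Pax5) and 4 of 6 myeloid markers (Cd14, Cebpa, Itgam and Spi1). The part of other cell types in the results was not tested. A list cannot tell fewer accessible cells from lower accessibility per cell.

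As background, SWI/SNF complexes slide and eject nucleosomes with the energy of ATP, and CHD proteins are a second family of such remodellers. Polycomb complexes methylate histone H3 and keep genes silent, whereas KMT2 enzymes mark active promoters and enhancers. Acetyltransferases such as p300 open chromatin at enhancers, deacetylases reverse this, and DNMT and TET enzymes add and oxidise methyl groups on DNA. E proteins such as E47 bind the E-box, a short motif of the form CANNTG, and recruit several of these enzymes.

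The start sites of the genes were looked at first, since most of them were covered in every list while a few differed between lists. A RefSeq table of start windows (GRCm38.p6, the same assembly as mm10), each with 250 bases before and 50 after a start, had 52 windows for 34 of the 42 genes. Of these, 40 (76.9%; exact 95% binomial interval 63.2 to 87.5) were overlapped by a region in all 4 lists, 7 in none and 5 in some. Some windows of one gene overlap or share a region, so the windows are not independent and the interval covers counting error only. Among 21263 windows of all protein-coding genes the share in all lists was 48.2%. In 32 of the 34 genes (94.1%) at least one start was covered in all lists, against 50.7% of 17492 protein-coding genes with a listed start. Of the 34 genes, Tet1 and Hdac9 had no such start.

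The 8 stretches below show the kinds of start that occurred: starts covered in all lists beside weaker or uncovered starts of the same gene, and the 2 genes that had no start covered throughout. Each is the 250 bases before a start, 5′ to 3′, from the RefSeq table, with every CANNTG in capitals. All 8 starts lie on the minus strand.
Satb1 start 1, all 4 lists, chr17:51833291-51833540: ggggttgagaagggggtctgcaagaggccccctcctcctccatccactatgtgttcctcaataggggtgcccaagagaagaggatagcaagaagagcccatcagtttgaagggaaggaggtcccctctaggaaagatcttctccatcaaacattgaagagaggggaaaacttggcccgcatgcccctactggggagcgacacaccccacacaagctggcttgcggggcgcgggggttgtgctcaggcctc
Satb1 start 3, E47 4 h and GFP 16 h, chr17:51826589-51826838: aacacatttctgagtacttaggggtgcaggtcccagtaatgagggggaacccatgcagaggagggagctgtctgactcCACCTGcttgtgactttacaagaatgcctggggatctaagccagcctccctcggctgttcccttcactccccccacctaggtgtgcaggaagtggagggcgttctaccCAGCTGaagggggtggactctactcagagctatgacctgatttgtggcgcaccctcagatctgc
Hdac7 start 2, all 4 lists, chr15:97831768-97832017: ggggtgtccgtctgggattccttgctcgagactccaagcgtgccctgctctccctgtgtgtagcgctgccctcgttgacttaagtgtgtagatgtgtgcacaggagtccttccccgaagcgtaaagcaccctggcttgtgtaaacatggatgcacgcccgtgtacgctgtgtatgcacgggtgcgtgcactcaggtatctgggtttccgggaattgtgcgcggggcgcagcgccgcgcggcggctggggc
Hdac7 start 4, E47 4 h and GFP 16 h, chr15:97814864-97815113: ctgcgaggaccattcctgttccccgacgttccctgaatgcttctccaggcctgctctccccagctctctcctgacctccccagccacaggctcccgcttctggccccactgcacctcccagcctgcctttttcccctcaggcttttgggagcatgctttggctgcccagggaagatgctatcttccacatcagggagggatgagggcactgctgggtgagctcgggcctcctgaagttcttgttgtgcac
Kdm2b start 3, all 4 lists, chr5:122900368-122900617: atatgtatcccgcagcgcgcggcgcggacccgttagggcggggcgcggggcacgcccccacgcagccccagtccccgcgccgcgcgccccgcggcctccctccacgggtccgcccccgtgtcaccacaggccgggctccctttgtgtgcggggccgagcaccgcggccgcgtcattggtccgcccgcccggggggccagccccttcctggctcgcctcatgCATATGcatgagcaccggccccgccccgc
Kdm2b start 1, E47 4 h and GFP 16 h, chr5:122989100-122989349: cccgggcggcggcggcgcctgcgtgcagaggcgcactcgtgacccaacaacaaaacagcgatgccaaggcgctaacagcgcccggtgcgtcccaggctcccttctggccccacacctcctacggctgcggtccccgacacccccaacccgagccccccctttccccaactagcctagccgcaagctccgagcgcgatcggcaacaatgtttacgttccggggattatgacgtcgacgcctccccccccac
Tet1, both 4 h lists, chr10:62887325-62887574: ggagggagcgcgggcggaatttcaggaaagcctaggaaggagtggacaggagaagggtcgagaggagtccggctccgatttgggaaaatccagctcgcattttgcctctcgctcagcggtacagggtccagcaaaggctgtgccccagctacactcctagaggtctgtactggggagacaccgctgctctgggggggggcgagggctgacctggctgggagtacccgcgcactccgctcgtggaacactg
Hdac9 start 1, no list, chr12:34917096-34917345: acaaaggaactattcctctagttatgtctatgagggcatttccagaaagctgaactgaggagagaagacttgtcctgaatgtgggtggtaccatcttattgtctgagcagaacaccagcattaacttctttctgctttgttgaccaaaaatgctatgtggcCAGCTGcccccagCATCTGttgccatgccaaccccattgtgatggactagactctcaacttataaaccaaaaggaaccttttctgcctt

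The starts differed in base composition and in how firmly they were called. Satb1, whose protein organises chromatin loops in developing T cells, has 5 listed starts. Start 1 and start 2 shared a region with fold enrichments of 10.3 and 9.98 in the E47 lists (4 h, then 16 h, as in all pairs below) and 11.3 and 9.73 in the GFP lists. Fold enrichment is the authors' value over local background, and it is read within its own list only. Start 3 was covered with folds of 6.12 in E47 at 4 h and 5.21 in GFP at 16 h, the 2 longest lists, and was not called in the other lists. Its window held 3 CG pairs and 5 E-boxes, against 8 CG pairs and 1 E-box at start 1, and starts 4 and 5 were not called in any list.

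Hdac7 encodes a class IIa histone deacetylase that is abundant in thymocytes. Its starts 2 and 3 shared a region with folds of 6.73 and 5.98 (E47) and 7.70 and 6.65 (GFP). Start 4, with 5 CG pairs against 35 at start 2, was called at folds of 5.13 in E47 at 4 h and 5.29 in GFP at 16 h. For Kdm2b, which encodes a CpG-binding demethylase of a Polycomb complex, the internal starts 3 and 4 were covered at folds of 17.6 and 16.5 with E47 and 15.2 and 16.9 with GFP. Its outermost start 1 was called only in the E47 list of 4 h (5.11) and the GFP list of 16 h (6.31), so that the inner start was the firmly called one. Tet1, a gene for an enzyme that oxidises methylcytosine, had its start window touched in the lists of 4 h alone, at folds of 5.56 in E47 and 5.75 in GFP, both near percentile 5 of their list (5.44 and 5.62). A GFP region at 16 h with a fold of 6.97 lay beside the window without reaching it.

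The share of these starts with an E-box did not exceed that of all starts. CANNTG stood on either strand in 32 of 52 windows (61.5%), against 69.0% of the windows of all protein-coding genes. CAGCTG, which is its own reverse complement, was in 8 windows (15.4%, against 15.6%), and CAGGTG or its reverse complement CACCTG was in 7 (13.5%, against 19.7%); both are forms of CANNTG and count within it. The median number of CG pairs per window was 29 for the 42 genes' starts and 13 for all. Windows of one gene can overlap, and a motif in both windows, as at Chd4, counts in each. A match is a string of letters in a window and not a measured binding site.

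**Figure D1:**
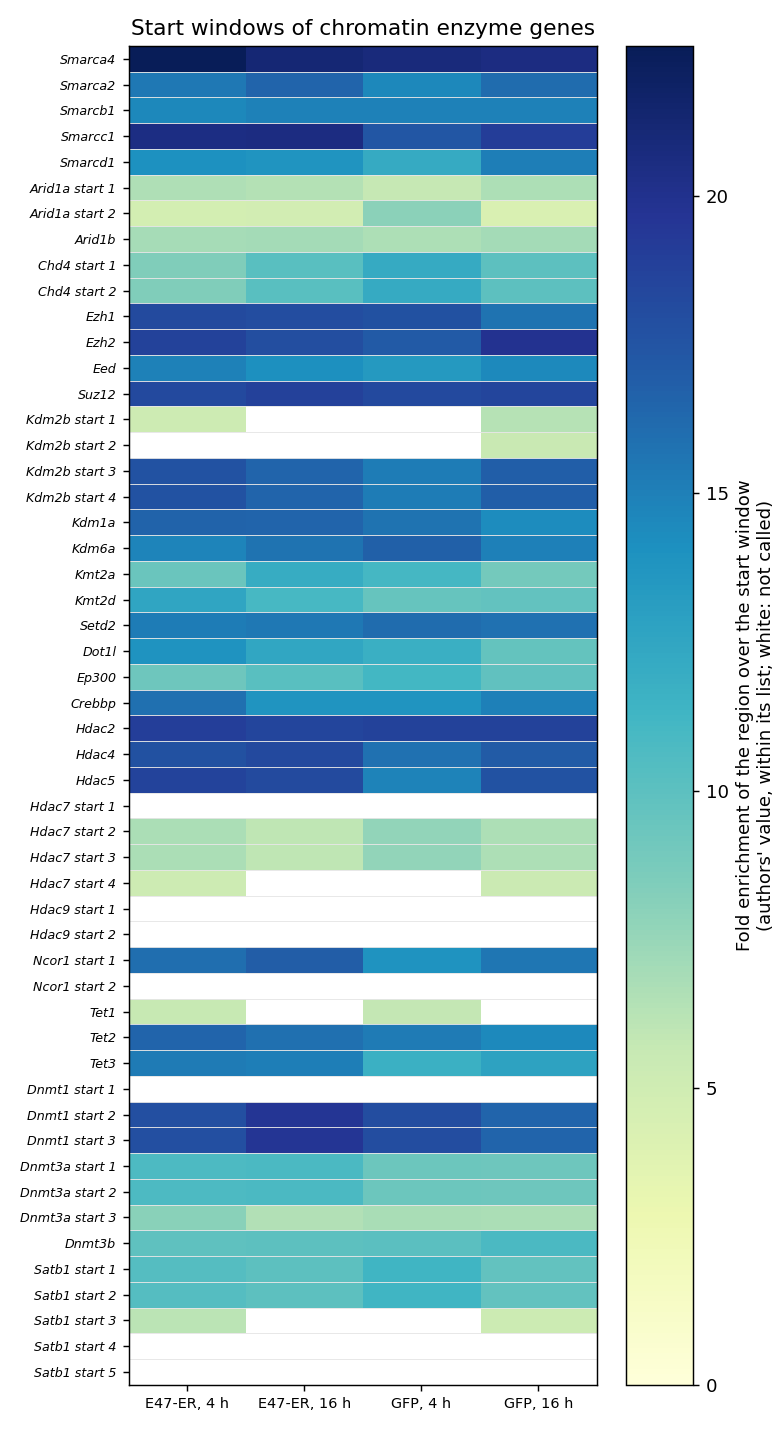
Fold enrichment of the region over each of 52 start windows (rows) in each of the 4 lists (columns), with white where no region was called. Rows that are white in all columns are the 7 uncovered starts, among them both of Hdac9, and Satb1 start 3 and Hdac7 start 4 are called in the E47 list of 4 h and the GFP list of 16 h.

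Across the lists, the 42 genes held 328 and 260 regions in the E47 lists and 281 and 338 in the GFP lists, which follows the order of the list lengths. Per gene the union held between 1 and 37 regions with a median of 7.5, against a median of 4 over 16741 protein-coding genes with any region. The genes are also longer, with a median of 71.8 kb against 21.3 kb. The strongest region of each gene had a median fold of 18.7 and 18.3 in the E47 lists and 18.02 and 18.3 in the GFP lists. Over all genes with a region these medians ran from 16.8 to 17.7.

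**Figure D2:**
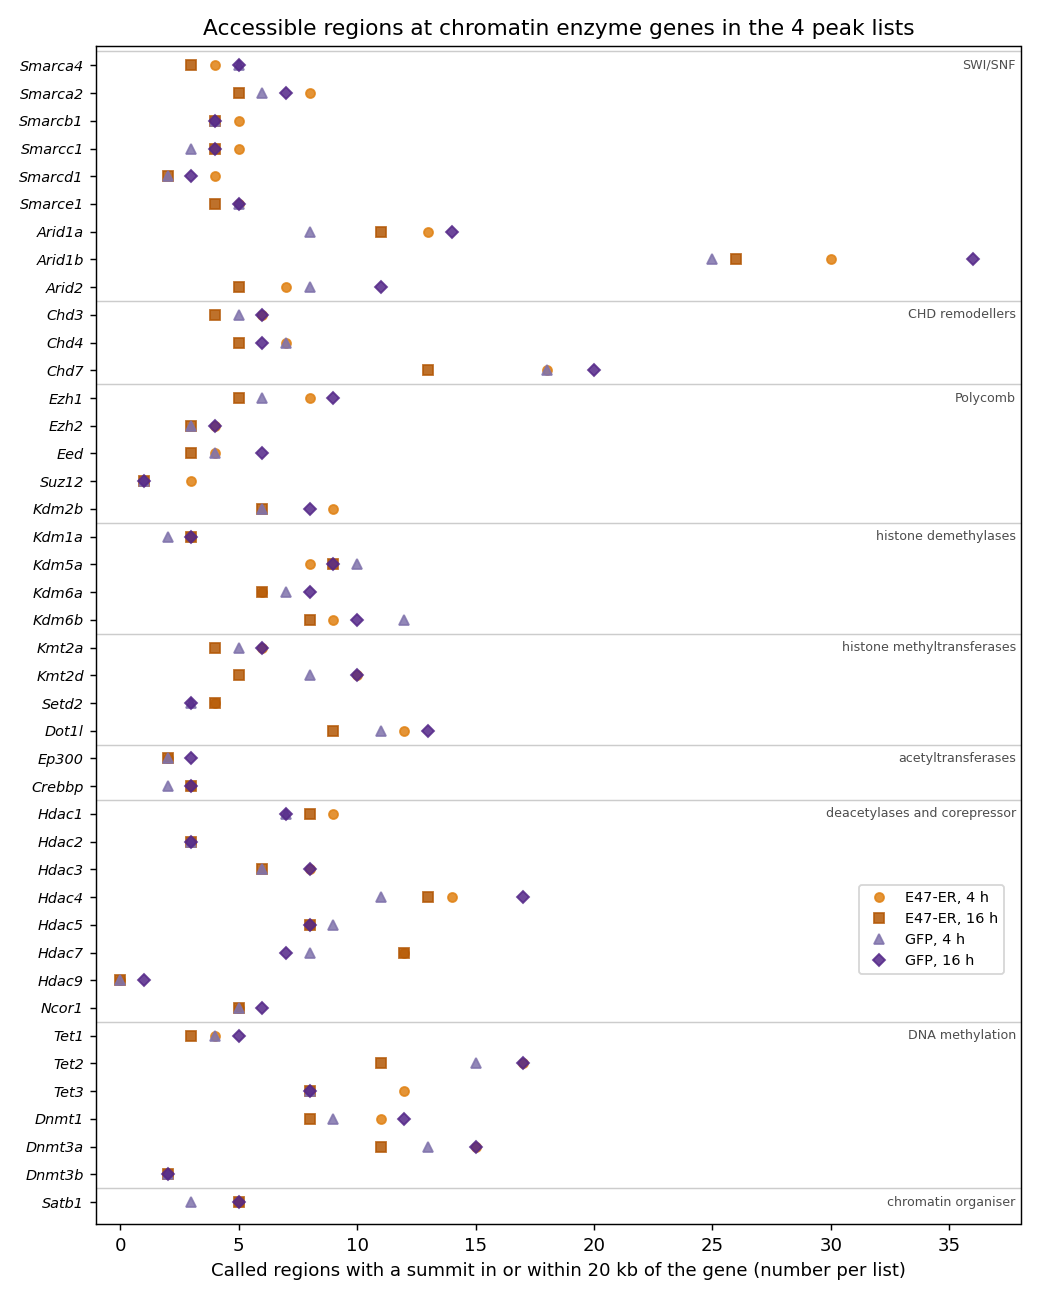
Number of called regions in or within 20 kb of each of the 42 genes (x axis), with 1 symbol per peak list and genes ordered by role (y axis). Arid1b stands apart with 25 to 36 regions per list, most genes hold fewer than 15, and Hdac7 has 12 in both E47 lists against 8 and 7 in the GFP lists.

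Regions common to all groups were the largest class: 209 of 379 (55.1%) were in all 4 lists, against 50.4% of the 51407 regions near any protein-coding gene. The comparison of vectors gave shares close to those of all genes. At 4 h, 72 of 328 regions in the E47 list were E47-only (22.0%; 17.6 to 26.8), where 24.1% were so near any protein-coding gene. In the GFP list, 23 of 281 were GFP-only (8.19%; 5.26 to 12.03), against a background of 11.4%. At 16 h, 23 of 260 were E47-only (8.85%; 5.69 to 13.0; background 11.2%) and 96 of 338 were GFP-only (28.4%; 23.7 to 33.5; background 30.1%). Exact intervals cover counting error only, and regions of one gene are not independent. The larger share of vector-only regions lay with the longer list at each time, near these genes as near all genes. With all lists cut to the length of the shortest by −log10 p, the shares became 13.7% (E47-only) and 11.4% (GFP-only) at 4 h and 14.2% and 16.1% at 16 h, against 15.1%, 14.2%, 17.95% and 17.9% near all genes. By gene, 31 of 42 had at least one region that was E47-only at 4 h, and 16 at 16 h (background 55.5% and 26.8% of genes), and 16 and 35 had a GFP-only one (28.9% and 62.0%).

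Regions called with the same vector at both times were few. Near the 42 genes, 12 of 379 regions (3.17%; 1.65 to 5.47) were in both E47 lists and neither GFP list, against a background of 3.33%. A further 13 (3.43%; 1.84 to 5.79) were in both GFP lists and neither E47 list, against 4.18%. Of the genes, 11 held a region of the first kind, 10 one of the second and 4 both (Arid1a, Arid1b, Hdac4 and Dnmt3a), which left 25 with neither. Among all genes with a region, 12.9% held a region of the first kind and 15.7% one of the second. Those percentages are of genes with a median of 4 regions, so the 42 genes are better set beside genes with as many regions.

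Set beside all other protein-coding genes with the same number of union regions, the 42 genes stood near the mean in each class. The sum of those means was 79.3 for E47-only regions at 4 h, where the genes had 72, and 26.8 for GFP-only regions at 4 h, where they had 23. At 16 h the sums were 26.9 (E47-only; 23 found) and 101 (GFP-only; 96 found). For both times they were 13.4 (E47-only; 12 found) and 14.1 (GFP-only; 13 found), and for regions in all 4 lists 191, where 209 were found. The number of such genes per member ranged from 1, for Arid1b, and had a median of 997.5, and 2 members had fewer than 20.

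**Figure D3:**
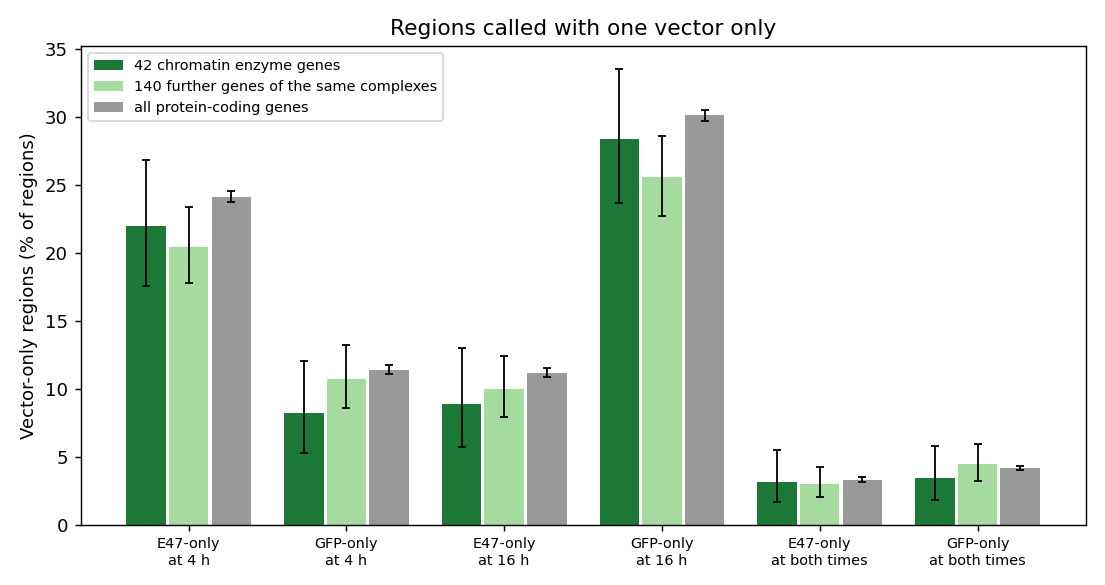
Share of regions called with one vector only (y axis, percent) near the 42 genes, near 140 further genes of the same complexes and near all protein-coding genes, for each vector and time; bars are shares and lines are exact 95% binomial intervals. The intervals of the 42 genes hold the share of all genes in all 6 classes. Those of the 140 further genes lie below it for E47-only at 4 h and GFP-only at 16 h and hold it in the other classes.

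Vector-only regions ranked low, near these genes as near all genes. Near the 42 genes few lay over gene starts. The counts by start window and by position below have no share of all genes beside them, so they cannot be read as particular to these genes. Strength here is the rank of a region by −log10 p, as a percentile of its list. E47-only regions of 4 h near the 42 genes had a median percentile of 17.9 against 64.5 for regions shared with GFP (17.4 against 63.7 near all protein-coding genes), and GFP-only regions of 16 h had 20.5 against 68.5 (21.1 against 66.3). Over a start window of any gene lay 5 of 71 union regions E47-only at 4 h and 7 of 95 GFP-only at 16 h, among them those over Kdm2b start 1, Hdac7 start 4 and Satb1 start 3, against 66 of 244 and 65 of 225 called with both vectors at those times. For E47-only at 16 h and GFP-only at 4 h the number was 0 of 23 each. Of the 25 regions called with one vector at both times, 0 lay above the median of both of their lists. Among these 25, 20 had their summit inside the gene, 2 within 1 kb of a gene end and none in a start window of any gene, while 64 of the 209 regions in all lists overlapped a start window.

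**Figure D4:**
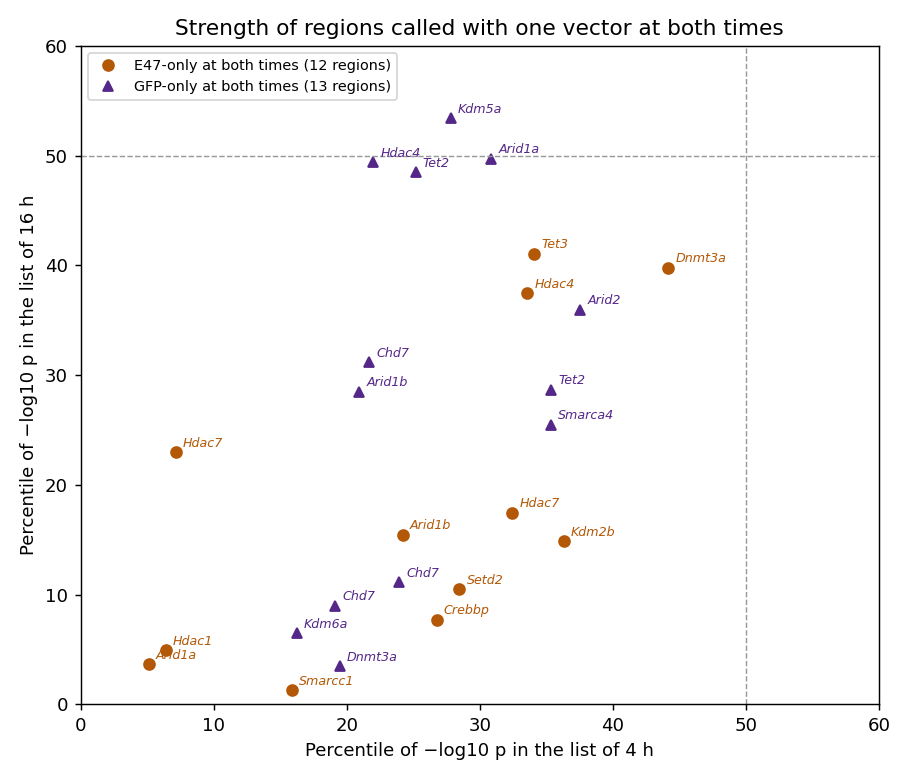
Percentile of −log10 p in the 4 h list (x axis) and the 16 h list (y axis) of the same vector for the 12 E47-only and 13 GFP-only regions called at both times; each point is a region named by its gene and dashed lines mark the list medians. The GFP-only region of Kdm5a is the one point past a median, at 53.4 in the list of 16 h, and all others lie below both.

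The SWI/SNF genes comprised the ATPases Smarca4 and Smarca2, the core subunits Smarcb1, Smarcc1, Smarcd1 and Smarce1, and the ARID subunits Arid1a, Arid1b and Arid2. Their 9 genes held 90 regions, 50 of them in all lists. E47-only regions made up 17 of 81 at 4 h (21.0%, against 24.1% near all genes) and 4 of 64 at 16 h (6.25%, against 11.2%). GFP-only regions were 5 of 66 at 4 h (7.58%, against 11.4%) and 25 of 89 at 16 h (28.1%, against 30.1%). Over both times 3 of the 90 regions were E47-only and 4 were GFP-only, where the shares near all genes were 3.33% and 4.18%.

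Arid1b (gene 239985, chromosome 17, 4994297 to 5347656) was the richest of all 42 genes, with 30 and 26 regions in the E47 lists and 25 and 36 in the GFP lists. Of its 37 union regions 18 were in all lists, and the strongest, at 5189534 to 5190385 inside the gene, had folds of 22.0 and 20.1 with E47 and 21.1 and 20.8 with GFP. One region was E47-only at both times (5036259 to 5036623; folds 7.64 and 6.73) and one GFP-only (5275056 to 5275595; 7.49 and 8.72), both inside the gene and far from its start. Arid1a (chromosome 4, 133679008 to 133756769) likewise held one of each, with folds of 4.69 and 4.81 for the E47-only region and 8.62 and 11.01 for the GFP-only region. Its counts were 13 and 11 with E47 and 8 and 14 with GFP, so the GFP list of 4 h was the low one.

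Arid2, which marks the PBAF form of the complex, had 7 and 5 regions with E47 and 8 and 11 with GFP, so both GFP counts lay above both E47 counts. A list can split a stretch that another list calls whole; with each union region counted once per list, the counts were 7 and 5 against 7 and 9 and overlapped. Its GFP-only region at both times (chromosome 15, 96378042 to 96378249) was inside the gene with folds of 8.83 and 7.61. Smarca4, the BRG1 gene, also had more in GFP, 5 and 5 against 4 and 3. Its GFP-only region (chromosome 9, 21715289 to 21715713; folds 9.18 and 8.35) lay 11189 bp past the end of the gene. The start of Smarca4 was covered in every list, with folds of 22.5 and 21.2 with E47 and 20.8 and 20.5 with GFP.

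Smarcc1 had 5 and 4 regions with E47 and 3 and 4 with GFP. The one E47-only region at both times (chromosome 9, 110245974 to 110246438; folds 5.37 and 4.36) was 5898 bp past the gene, inside the neighbouring Cspg5; the medians of the 12 regions of this class were 6.77 and 6.08. Smarcb1, together with Hdac2 and Dnmt3b of the groups below, had every union region in all 4 lists (4, 3 and 2 regions). These 3 genes had no vector-only region at either time.

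Of the CHD genes, Chd3 and Chd4 encode alternative ATPases of the NuRD complex and Chd7 a separate remodeller. The 3 genes held 40 regions, 20 in all lists. E47-only regions were 7 of 31 at 4 h (22.6%, against 24.1% near all genes) and 2 of 22 at 16 h (9.09%, against 11.2%). GFP-only regions were 5 of 30 at 4 h (16.7%, against 11.4%) and 11 of 32 at 16 h (34.4%, against 30.1%). Over both times 0 were E47-only (of 40, where 3 counts would be 7.50%), and 3 were GFP-only, all of them in Chd7. Near all genes the shares at both times were 3.33% and 4.18%.

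Chd7 (gene 320790, chromosome 4, 8690402 to 8868449) held 18 and 13 regions with E47 and 18 and 20 with GFP, so the E47 list of 16 h was low and the other counts were close. Its GFP-only regions lay inside the gene at 8747019 to 8747614 (folds 7.31 and 6.49), 8839610 to 8839814 (4.69 and 3.95) and 8853902 to 8854474 (6.91 and 7.91). The 11 other genes with as many regions had a mean of 0.909 GFP-only regions at both times. For Chd7, the E47-only minus the GFP-only number at both times was -3, and it became -1 with lists of equal length and 0 among regions above the list medians. Another region inside the gene (8799550 to 8799889), in all lists, had folds of 15.3 and 14.8 with E47 and 7.08 and 9.51 with GFP, at percentiles of 75.7, 68.5, 21.7 and 45.0. Percentiles and folds of different lists cannot be read as a change. Chd4 had 7 and 5 regions with E47 and 7 and 6 with GFP, no vector-only region at both times, and the strongest region of the CHD genes, with folds of 20.4 and 21.0 in the E47 lists and 19.7 and 20.03 in the GFP lists. That region lay 14619 bp past Chd4, inside Iffo1.

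The Polycomb genes were Ezh1 and Ezh2, which encode the methyltransferases, Eed and Suz12, which encode their partners in the same complex, and Kdm2b. Together they held 32 regions, 16 in all lists. E47-only regions were 9 of 28 at 4 h (32.1%, against 24.1% near all genes). At 16 h they were 1 of 18 (5.56%, against 11.2%). GFP-only regions were 1 of 20 at 4 h (5%, against 11.4%) and 10 of 28 at 16 h (35.7%, against 30.1%). The larger share thus lay with the same vector at each time as near all genes. For the 24 Polycomb genes among the 140 further genes, E47-only shares were 23.6% and 11.9%, and GFP-only shares 8.57% and 26.5%. The gaps from the background were not tested. Suz12 was the plainest example of how calls followed one list, with 3 regions in E47 at 4 h and 1 in each other list. The additional 2 regions of Suz12 were weak, at percentiles of 0.544 and 2.66.

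Kdm2b (chromosome 5, 122870664 to 122989270) had 9 and 6 regions with E47 and 6 and 8 with GFP. Its E47-only region at both times, 1292 bp upstream of the gene (122990370 to 122990885; folds 6.24 and 5.07), lay beside the outermost start whose sequence is shown above. Eed had 4 and 3 regions with E47 and 4 and 6 with GFP, and its strongest region had folds of 23.3 and 22.5 in the E47 lists and 21.1 and 20.1 in the GFP lists. It lay 13493 bp past Eed over a listed start of Hikeshi. Ezh2, the enzyme of dividing cells, had 4 and 3 with E47 and 3 and 4 with GFP, with its start covered at folds between 17.1 and 19.8. Neither Eed nor Ezh2 held a region called with one vector at both times.

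The 4 histone demethylase genes held 32 regions, 21 of them (65.6%, against 50.4% near all genes) in all lists. E47-only regions were 2 of 26 at 4 h (7.69%, against 24.1%) and 2 of 26 at 16 h (7.69%, against 11.2%). GFP-only regions were 3 of 31 at 4 h (9.68%, against 11.4%) and 5 of 30 at 16 h (16.7%, against 30.1%). These counts are small, and their gap from the background was not tested. The 13 further histone demethylase genes of the wider list had 55.3% of regions in all lists. Of their regions, 15.1% were E47-only at 4 h and 25.7% GFP-only at 16 h, and these shares were nearer to all genes. In the other classes, 6 of 58 were E47-only at 16 h (10.3%, against 11.2%) and 11 of 55 GFP-only at 4 h (20%, against 11.4%). For GFP-only at 4 h the further genes thus lay farther from all genes than the 4 genes did. Kdm5a, whose enzyme removes methyl groups from active promoters, had 8 and 9 regions with E47 and 10 and 9 with GFP. Near it was the region with the highest fold of all 42 genes in each list but E47 at 16 h, where one near Kdm2b had 26.2. It lay 6654 bp outside the gene at chromosome 6, 120357066 to 120357733, with folds of 29.2 and 25.6 with E47 and 24.7 and 27.3 with GFP. That region overlapped a listed start of the neighbour Ccdc77. The GFP-only region of Kdm5a at both times was inside the gene (120395755 to 120396488), with folds of 8.24 and 13.0.

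Kdm6a and Kdm6b encode demethylases that remove the Polycomb mark. Kdm6a, on the X chromosome, had 6 and 6 regions with E47 and 7 and 8 with GFP, and Kdm6b had 9 and 8 against 12 and 10. In both genes the GFP counts lay above the E47 counts, but 1 and 0 regions, respectively, were GFP-only at both times. The region of Kdm6a (18161738 to 18161871; folds 2.87 and 2.53) was 776 bp from the start and had the lowest folds of the 25, at percentiles of 16.2 and 6.48. Kdm1a, the LSD1 gene, had 3 and 3 regions with E47 and 2 and 3 with GFP, and none with one vector at both times.

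Counts that did not overlap between vectors, as in Kdm6a, Kdm6b, Arid2 and Smarca4, were found with GFP above E47 in these 4 of the 42 genes, beside 8.56% of all genes with a region. The reverse, both E47 counts above both GFP counts, was found in 3 genes, Hdac1, Setd2 and Hdac7, beside 6.06% of all genes. Every region of Smarca4, Kdm6b, Hdac1 and Setd2 also lay within 20 kb of another protein-coding gene. Hdac7, Arid2 and Kdm6a had 5, 4 and 4 regions near no other gene. When each union region was counted once per list, a count added after the data were seen, Hdac1, Setd2 and Hdac7 still had both E47 counts above (background 5.36%; Hdac1 only with its regions inside Lck), and of the 4 genes with GFP above only Smarca4 was left (background 7.66%).

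The methyltransferase genes Kmt2a, Kmt2d, Setd2 and Dot1l held 36 regions, 21 in all lists. E47-only regions were 7 of 32 at 4 h (21.9%, against 24.1% near all genes) and 1 of 22 at 16 h (4.55%, against 11.2%). GFP-only regions were 1 of 27 at 4 h (3.70%, against 11.4%) and 10 of 32 at 16 h (31.25%, against 30.1%). Setd2, whose enzyme marks transcribed gene bodies, had 4 and 4 regions with E47 and 3 and 3 with GFP. The difference was 1 region near the end of the gene opposite its start (chromosome 9, 110617185 to 110617439), E47-only at both times with folds of 7.93 and 6.57. Dot1l, the gene of the methyltransferase of the histone core, had 12 and 9 with E47 and 11 and 13 with GFP, and its strongest region had folds of 21.2 and 20.6 in the E47 lists and 18.8 and 19.6 in the GFP lists. That region was 12710 bp upstream of Dot1l, over a listed start of Ap3d1. Dot1l had no region called with one vector at both times, as was true of Kmt2a and Kmt2d.

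The acetyltransferase genes Ep300 and Crebbp, coactivators that E proteins are known to recruit, were among those with the fewest regions. Ep300 had 2 and 2 with E47 and 2 and 3 with GFP, and its strongest region, with folds of 21.0 and 22.8 in the E47 lists and 22.4 and 23.1 in the GFP lists, lay 11850 bp past the gene over a start of L3mbtl2. The start of Ep300 itself had folds between 9.17 and 11.2. Crebbp had 3 and 3 with E47 and 2 and 3 with GFP. Its E47-only region at both times (chromosome 16, 4068705 to 4068909; folds 8.09 and 6.30) lay 12512 bp past the gene, inside Trap1. Both starts were covered in all lists.

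The deacetylase genes and Ncor1, the gene of their nuclear receptor corepressor, held 65 regions, 37 in all lists. E47-only regions were 12 of 59 at 4 h (20.3%, against 24.1% near all genes) and 8 of 55 at 16 h (14.5%, against 11.2%). GFP-only regions were 3 of 49 at 4 h (6.12%, against 11.4%) and 13 of 57 at 16 h (22.8%, against 30.1%). Over both times 4 regions were E47-only, in Hdac1, Hdac4 and Hdac7, and 1 was GFP-only, in Hdac4. These numbers are small, and the share at both times, 4 of 65, was not tested against the background.

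Hdac7 (gene 56233, chromosome 15, 97792661 to 97844502) had 12 and 12 regions in the E47 lists and 8 and 7 in the GFP lists. Counted once per union region, these were 10 and 9 against 7 and 7, so part of the gap came from stretches that the E47 lists split. It was the gene with the widest gap among those whose counts did not overlap. At 4 h 3 of its regions were E47-only and 0 GFP-only, and at 16 h 4 were E47-only and 2 GFP-only. Genes with as many regions had means of 0.341 E47-only and 0.451 GFP-only regions at both times, where Hdac7 had 2 and 0. Hdac7, Chd7 and Tet2 had the widest differences of the 42 genes between the E47-only and the GFP-only number at both times. A gap from the mean of like genes was not tested. Over the 42 genes, 10 lay above the mean of like genes for E47-only and 9 for GFP-only regions at both times. The surplus of 2 in Hdac7 became 1 with lists of equal length and 0 among regions above the list medians. The 2 regions lay inside the gene, at 97822093 to 97822316 (folds 3.25 and 4.30) and 97837547 to 97837724 (7.09 and 5.87). The first lay beside a region common to all lists, and both were at or below percentile 32.4 of their lists.

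Hdac4, also of class IIa (chromosome 1, 91928779 to 92195702), had 14 and 13 regions with E47 and 11 and 17 with GFP. Its start had the highest rank of all starts shown, at percentiles of 99.7 and 99.8 with E47 and 99.4 and 99.6 with GFP, with folds between 15.8 and 18.3. It held an E47-only region at both times 110742 bp from the start (92069533 to 92069929; folds 8.36 and 8.61) and a GFP-only region 237523 bp from it (91942635 to 91943156; 5.91 and 7.98). In the GFP list of 16 h, 2 further regions lay near this end of the gene (91941523 to 91941846 and 91956227 to 91956561) that no other list held.

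Hdac1, a class I deacetylase gene of the NuRD complex, had 9 and 8 regions with E47 and 7 and 7 with GFP. Its E47-only region at both times (chromosome 4, 129541899 to 129542061) lay 652 bp inside one end of the gene and was faint, with folds of 3.52 and 3.66. The window of Hdac1 also took in 3 union regions inside Lck. A region over a listed Lck start (129558320 to 129558971) lay 15847 bp from Hdac1. It was called in E47 at both times (6.63 and 7.63) and in GFP at 16 h (5.08). Since the transgene of all groups is named for the Lck promoter, reads of such a copy and of Lck itself cannot be told apart at this place. Without the 3 union regions inside Lck, Hdac1 had 6 and 5 regions with E47 and 5 and 5 with GFP, so its counts then overlapped; this count was added after the data were seen. The strongest region near Hdac1 had folds of 24.5 and 22.7 with E47 and 21.6 and 23.1 with GFP.

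Of the remaining genes of this group, Hdac2, Hdac5 and Ncor1 differed by at most 1 region between lists. Hdac2 had 3 regions in each list, Hdac5 8 and 8 with E47 and 9 and 8 with GFP, and Ncor1 5 and 5 against 5 and 6. Hdac3 had 8 and 6 with E47 and 6 and 8 with GFP, with 2 of 8 regions E47-only at 4 h and 3 of 8 GFP-only at 16 h. Hdac9 (gene 79221, chromosome 12, 34047580 to 34917095) is the longest of the 42 genes, and had a single region, in GFP at 16 h, with a fold of 11.5 and at percentile 46.7. Neither of its listed starts was called. Of 85 protein-coding genes at least as long, 46 also had at most 1 region.

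**Figure D5:**
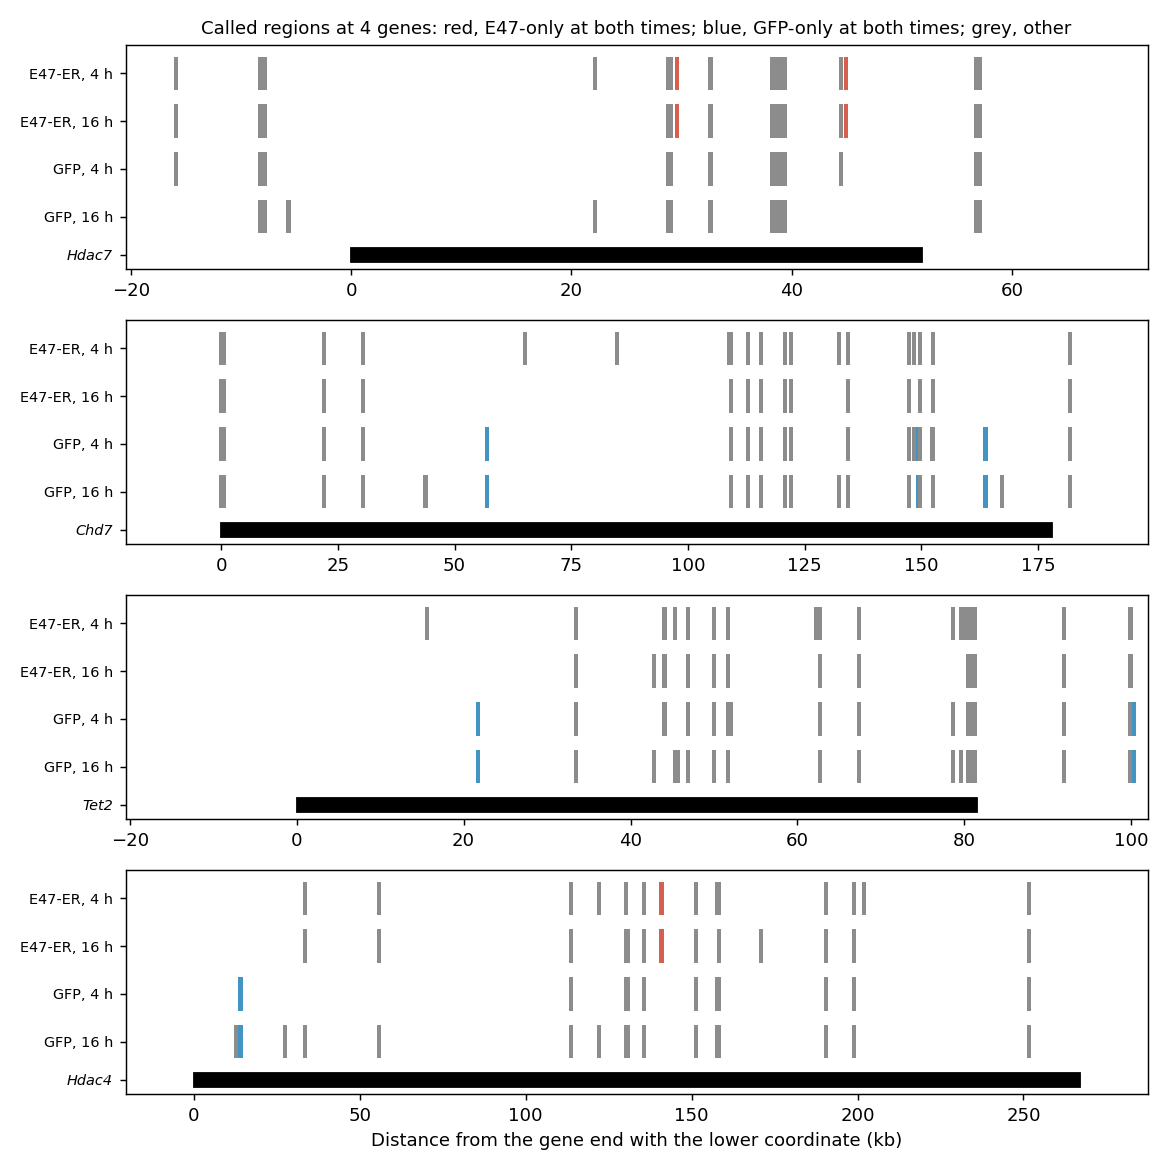
Called regions in the 4 lists (tracks) along Hdac7, Chd7, Tet2 and Hdac4, placed by distance from the gene end with the lower coordinate (x axis, kb), with the gene body as a black bar; each box is a union region, drawn in the tracks of the lists that called it, with narrow ones widened to be visible. Red boxes, E47-only at both times, appear at 2 places in Hdac7 and 1 in Hdac4, and blue boxes, GFP-only at both times, at 3 in Chd7, 2 in Tet2 and 1 in Hdac4.

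The genes of DNA methylation were Dnmt1, which copies methylation after replication, Dnmt3a and Dnmt3b, which place it anew, and Tet1, Tet2 and Tet3, which oxidise it. They held 70 regions, 37 in all lists. E47-only regions were 15 of 61 at 4 h (24.6%, against 24.1% near all genes) and 3 of 43 at 16 h (6.98%, against 11.2%). GFP-only regions were 5 of 51 at 4 h (9.80%, against 11.4%) and 18 of 59 at 16 h (30.5%, against 30.1%). Over both times 2 of the 70 regions were E47-only, in Tet3 and Dnmt3a, and 3 were GFP-only, in Tet2 and Dnmt3a. Near all genes the shares at both times were 3.33% and 4.18%.

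Tet2 (gene 214133, chromosome 3, 133463677 to 133545136) had 17 and 11 regions with E47 and 15 and 17 with GFP, so the E47 list of 16 h stood below the rest. Its GFP-only regions at both times were one inside the gene (133485181 to 133485530; folds 9.18 and 8.13) and one 18932 bp upstream (133563915 to 133564143; 6.97 and 9.13). The second sat beside a region common to all lists (133563255 to 133563868) with folds of 19.1 and 18.1 with E47 and 23.4 and 25.3 with GFP. Tet3 had 12 and 8 with E47 and 8 and 8 with GFP, and an E47-only region inside the gene (chromosome 6, 83381592 to 83382177; folds 8.53 and 9.55). Among the 3 TET genes, Tet1 was the one without a firmly called start.

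Dnmt3a (gene 13435, chromosome 12, 3801559 to 3914443) had 15 and 11 regions with E47 and 13 and 15 with GFP, with 10 of 16 union regions in all lists. It held an E47-only region at both times (3868497 to 3868996; folds 6.45 and 6.53, at percentiles of 44.2 and 39.8) and a GFP-only one (3807344 to 3807515; 4.51 and 3.52). The E47-only region of Dnmt3a had the highest rank of its class at 4 h. A further region of Dnmt3a, in all lists (3855694 to 3856428), had folds of 12.6 and 12.03 with E47 and 6.24 and 6.60 with GFP. Folds are read within a list only, so this gap cannot be read as a change. Dnmt1 had 11 and 8 with E47 and 9 and 12 with GFP, none of them with one vector at both times.

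Satb1 (gene 20230, chromosome 17, 51736187 to 51833290) had 5 and 5 regions with E47 and 3 and 5 with GFP, 3 of 7 union regions in all lists and 0 with one vector at both times. Its strongest region was the weakest top region among the lead genes of the 9 roles, with folds between 9.73 and 11.3. Besides the region of start 3, the lists held a region of 16 h in GFP alone (51760162 to 51760597; fold 7.66), one in E47 at 16 h alone (51762598 to 51762790; 8.10) and one in E47 at 4 h alone (51828059 to 51828157; 3.02).

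Regions called with one vector at 4 h were followed to 16 h. Of 71 union regions E47-only at 4 h, 12 (16.9%, against 17.4% near any gene) were E47-only at 16 h as well, 22 (31.0%, against 23.6%) were in GFP alone at 16 h, while 24 were in no list of 16 h and 13 were in both. Among the 23 that were GFP-only at 4 h, 13 (56.5%, against 53.5%) were GFP-only at 16 h. In all, 22 regions (5.80%, against 4.53%) were held by just the longest lists, E47 of 4 h and GFP of 16 h. A single region was in the 2 shortest lists alone, at Chd4.

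A wider list of 140 genes of the same complexes had 966 regions, 537 (55.6%) in all lists. E47-only regions made up 170 of 832 (20.4%) at 4 h and 72 of 719 (10.01%) at 16 h, and GFP-only regions 79 of 735 (10.7%) and 224 of 877 (25.5%). At both times 29 were E47-only (3.00%, against 3.33%) and 43 GFP-only (4.45%, against 4.18%), in 25 and 34 genes. Among all genes with a region, 12.9% and 15.7% held such regions. Genes with 2 or more E47-only regions were Tbl1xr1 and Sin3b, which encode corepressor subunits, Phc1, a Polycomb gene, and Kat6a, an acetyltransferase gene that also had 2 GFP-only ones. Stag1, a cohesin gene, and Sirt6, a sirtuin gene, had 3 GFP-only regions each and 0 E47-only, and Kmt2c, Mta1, Mbd2, Gatad2a and Rnf2 had 2 each. Gatad2a and Rnf2 also held 1 E47-only region each.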

How the data were processed

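ATAC-seq was done on 8 samples in 4 groups of 2. Reads were handled with cutadapt, Bowtie2 and MACS2 on mm10, and DiffBind is also named, per the submitters' processing notes; no versions are given there. The deposited peak lists, one per group, give for each summit a score from 540 to 1000, the authors' fold enrichment and −log10 p of at least 2.00; the authors' list names say that they are conservative sets from the irreproducible discovery rate method, which compares replicates. Lines that overlap by 1 bp or more were merged into regions, within lists and then over the 4 lists (the union), and tied to RefSeq gene bodies of the same assembly by summits within 20 kb. No count model or test was used; shares have exact Clopper-Pearson intervals of 95%, and beside a share of 0 stands the limit that 3 counts of the total would give, which is lower than the upper bound of such an interval.

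The members and lists were chosen with earlier results of these data known. Genes named with full values are the 17 with a region called with one vector at both times, those with the most regions, and the gene of each role with the highest fold in GFP at 4 h; Hdac9, Tet1, Suz12, Kdm6b, Smarcb1, Hdac2, Dnmt3b, Ezh2 and the rest were named after their values were seen. Alternatives were a stricter overlap, single summits, lists of equal length, stronger regions, shorter distances and, added later, union regions counted once per list. The code was tested on simulated lists. Shares and intervals came from scipy 1.17.1 and numpy 2.4.6, tables from pandas 2.3.3 and plots from matplotlib 3.10.9, under Python 3.11.15. Sequence under the vector-only regions was not used here.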

Additional observations from a re-analysis of the deposited data

Results flagged for a closer look

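Near the 42 genes, E47-only regions outnumbered GFP-only regions by 49 at 4 h, and the difference was -73 at 16 h, so the sign turned between the times. Near all protein-coding genes it turned likewise, with 10319 E47-only against 4166 GFP-only regions at 4 h and 3925 against 13566 at 16 h. By gene, 17 of 42 (40.5%) had a difference above 0 at 4 h and below 0 at 16 h, 0 had the reverse, 3 were above 0 at both times and 2 below; of all genes with a region, which hold fewer regions each, 25.1% had the first kind and 0.759% the reverse. With one list per group, no test of this turn was made, and it was not tested against chance. The lengths of the lists turned the same way: E47 had 49811 regions against 42665 for GFP at 4 h, and 40649 against 52846 at 16 h. With lists of equal length, 38 E47-only and 31 GFP-only regions were found at 4 h (13.7% and 11.4%, against 15.1% and 14.2% near all genes) and 37 and 43 at 16 h (14.2% and 16.1%, against 17.95% and 17.9%).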

How the results depend on the processing

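No paired analysis was possible because each group has a single list made from both samples, and for the same reason no replicate could be left out. With all lists at the length of the shortest, E47-only regions near the 42 genes came to 13.7% at 4 h and 14.2% at 16 h and GFP-only regions to 16.1% at 16 h, outside the intervals of the values reported; all protein-coding genes had 15.1%, 17.95% and 17.9%. Among regions above the median of their list, E47-only regions were 1.18% at 4 h (2 of 170) and 0 at 16 h (of 140; 3 counts would be 2.14%), and GFP-only regions 0 at 4 h (of 156; 3 counts would be 1.92%) and 4.97% at 16 h (9 of 181); near all genes these were 2.27%, 0.947%, 0.359% and 6.18%. Regions with one vector at both times were then 0 for E47 and 0 for GFP (of 193; 3 counts would be 1.55%), against 0.364% and 0.137% near all genes. Counting each union region once per list, which was added after the data were seen, left 1 gene in place of 4 with both GFP counts above both E47 counts. An overlap of 50% of the shorter region, single summits within 150 bp, summits inside the gene and summits within 5 kb left all 6 shares inside the intervals of the values reported. Of 17 genes with a region called with one vector at both times, 13 had another surplus of one vector among regions above the medians, 11 with lists of equal length, 9 with single summits, 5 inside the gene and 4 within 5 kb. Those with a surplus kept its sign or went to 0 under these settings. Of the genes whose surplus was 0, Arid1b and Hdac4 had -1 each with single summits and 1 and 2 with lists of equal length. Dnmt3a had 1 under both of these settings, and Arid1a had -1 with lists of equal length. The lists hold no reads, so a region absent from a list was not detected at the calling threshold and cannot be called closed.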
